A study of Mus musculus with 6 samples.

Results

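Small RNA from NaIO4-treated and from untreated RNA of wild type mouse spermatogonial stem cells was compared, with 1 library each, so 2 of the 6 libraries of the series, chosen by their labelled genotype and treatment. Both came from wild type cells of the strain given as C57BL/6, and both held total RNA with added spike-ins. The cells were taken from a 15-day-old F1 male of C57BL/6 and DBA2 that carried an actin-EGFP transgene, and they were cultured on embryonic fibroblast feeders, so feeder RNA is part of both libraries. For the first library 4 µg of RNA was kept for 1 hour on ice in the dark with 2 µl of 200 mM NaIO4. Each library was then made from 0.5 µg of RNA. The other libraries came from Hen1 and Mili knockout cells and from RNA bound to MILI, and they enter only where named.

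NaIO4 oxidises an RNA whose last ribose carries free 2′ and 3′ hydroxyl groups, and the oxidised end no longer takes the 3′ adapter of the library. An RNA with a methyl group on the last 2′ oxygen, or with another blocked end, resists. In animals the methyltransferase Hen1 (Henmt1 in mouse) adds this group to piRNAs, the small RNAs that Piwi proteins such as MILI (Piwil2) carry in germ cells. Mammalian microRNAs keep a free end, as do most other cellular RNAs that end in a hydroxyl.

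The NaIO4 library held 10752278 reads and the untreated library 7905850 reads. Reads of 18 to 35 nt numbered 10282416 with NaIO4 and 7322408 without, and every share below is taken of these. A ratio is the share in the NaIO4 library over the share in the untreated library. The range in brackets after it is an exact 95% interval computed from the read counts. It covers counting error alone, because reads copied by PCR and lacking molecular identifiers do not each stand for 1 molecule. There was 1 library per group and so no replicate check, no test and no p-value, and the values compare these libraries rather than the conditions. Shares sum to the whole library, so the loss of one kind of RNA raises the share of the rest, and a ratio above 1 is no measure of added molecules. Spike-ins were added according to the labels, but their sequences are not given here, and no absolute amounts were derived. As a check of the cells, microRNAs linked to spermatogonial stem cells and the germ line made up 51.0% of microRNA reads with NaIO4 and 59.8% without. Those of the feeders made up 1.86% with NaIO4 and 1.82% without. Markers of meiotic cells, blood, endothelium and muscle each stood at or under 0.144% in both libraries. In such bulk RNA fewer cells of a type and less RNA per cell cannot be told apart, and the labels do not say whether both libraries came from one RNA preparation.

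Examples of reads are shown first, in DNA letters. The reads of piRNA size from genes shown here began with T, the DNA letter for U, given in capitals. The first comes from a long non-coding RNA and the others from coding sequence, and all held a higher share with NaIO4. Brk1 and Atp5c1 were picked from the 5 genes with the highest ratios, so the values of their reads are a description.
Gm38246, 27 nt: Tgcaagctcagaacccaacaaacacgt
Fth1, 28 nt: Tacgtctatctgtctatgtcttgttatt
Brk1, 28 nt: Ttgaacggagaatagagtacattgaagc
Atp5c1, 29 nt: Tgagaaggctgatattaaggcacctgagg
The read of Gm38246 (chromosome 3) was counted 4981 times with NaIO4 and 2420 times without, a ratio of 1.47 (1.40 to 1.54). The Fth1 read (chromosome 19), from the ferritin heavy chain mRNA, was counted 810 times with NaIO4 and 219 times without, a ratio of 2.63 (2.27 to 3.07). The Brk1 and Atp5c1 reads had ratios of 2.62 (1.62 to 4.41) and 2.46 (1.90 to 3.20).

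Of the whole classes, mature microRNAs had the lowest ratio. Their sequences are given as in RefSeq (GRCm38.p6), with the seed, bases 2 to 8, in capitals.
miR-741-3p: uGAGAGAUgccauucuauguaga
miR-871-3p: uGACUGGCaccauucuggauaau
miR-470-5p: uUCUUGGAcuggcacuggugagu
miR-880-3p: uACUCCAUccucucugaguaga
miR-183-5p: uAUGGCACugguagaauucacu
miR-96-5p: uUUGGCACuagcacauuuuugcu
miR-26a-5p: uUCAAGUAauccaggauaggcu
miR-465a-5p: uAUUUAGAauggcacugauguga
miR-465b-5p: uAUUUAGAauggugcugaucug
miR-465c-5p: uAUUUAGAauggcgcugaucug
These are among the commonest arms of untreated cells, and the last 3 share a seed. miR-741-3p, the commonest arm and a member of the X-linked group that male germ cells express, had 1518 reads per 1000000 (RPM) with NaIO4 and 31879 without.

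Reads from other structured RNAs are shown next, with forms of one RNA that end at different bases. The last 3 bases of each read are in capitals.
Rn5s, 25 nt: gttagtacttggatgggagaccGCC
Rnu3b1, 19 nt: ggaacgcagtctgagtGGA
Rny1, 27 nt: ttctcactactgcacttgactagtCTT
Rmrp, 30 nt: agctcgctctgaaggcctgtttcctagGCT
Rmrp, 25 nt: agctcgctctgaaggcctgtttCCT
n-TVcac9, 18 nt: aaccgggcggaaacaCCA
n-TVcac9, 29 nt: gtttccgtagtgtagtggttatcacgTTC
mt-Rnr1, 22 nt: aacgttaggtcaaggtgtaGCC
mt-Rnr1, 29 nt: aacgttaggtcaaggtgtagccaatgAAA
The read of Rn5s, the 5S ribosomal RNA gene (chromosome 8), was the commonest of its class with NaIO4, at 81925 reads with NaIO4 and 12910 without. The read of Rnu3b1 (chromosome 11), a U3 small nucleolar RNA (snoRNA) gene, ends at the RNA's own 3′ end and was counted 15 times with NaIO4 and 9722 times without. The Rny1 read, near the 3′ end of its RNA, was counted 608 times with NaIO4 and 3520 times without, a ratio of 0.123 (0.113 to 0.134).

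By class, microRNA reads were lost most and reads of piRNA size from genes gained most of the library. MicroRNAs held 1.17% of the reads with NaIO4 and 18.7% without, a ratio of 0.0625 (0.0622 to 0.0629). Gene-derived reads, which match a protein-coding, long non-coding or pseudogene transcript in the sense, held 44.1% with NaIO4 and 24.3% without at 25 to 31 nt, a ratio of 1.81 (1.81 to 1.81). The ratio at these lengths was 1.82 for protein-coding genes, 1.70 for long non-coding genes, 1.78 for pseudogenes and 1.58 (1.56 to 1.59) for reads antisense to a gene. All reads of 25 to 31 nt outside the small RNA classes, called piRNA-like below, held 64.8% with NaIO4 and 40.8% without, a ratio of 1.59. Ribosomal RNA (rRNA) reads had the highest ratio of a class, 3.05 (3.03 to 3.07), with 5.35% of the reads with NaIO4 and 1.75% without. It was 0.618, below 1, with each distinct sequence counted once, and 1.91 without the 10 commonest sequences of each library.

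Mitochondrial reads were the other class with a large loss, at 0.375% with NaIO4 and 3.32% without, a ratio of 0.113 (0.112 to 0.114). Small nuclear RNA (snRNA) and snoRNA reads held 1.46% with NaIO4 and 3.64% without, a ratio of 0.400 (0.398 to 0.403). Transfer RNA (tRNA) reads barely moved as a class, with 0.943% with NaIO4, 0.960% without and a ratio of 0.982 (0.972 to 0.991). Reads that matched no annotated transcript held 25.6% with NaIO4 and 27% without, and no genome sequence was used to place them. Among those, the ratio was 0.781 (0.779 to 0.784) at 18 to 24 nt, 1.21 (1.21 to 1.21) at 25 to 31 nt and 0.500 (0.497 to 0.502) at 32 to 35 nt.

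**Figure D1:**
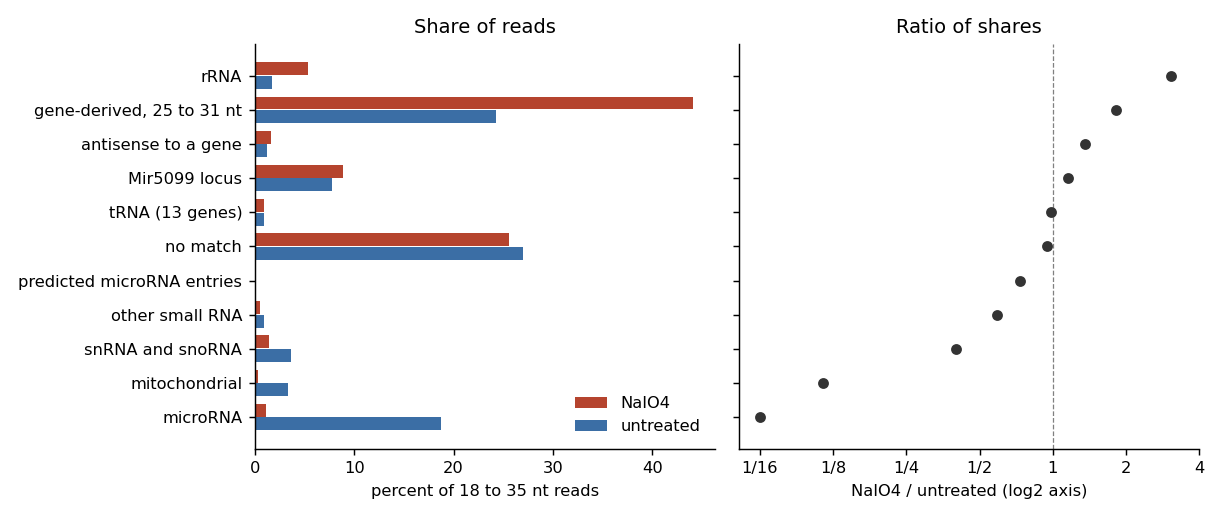
Share of 18 to 35 nt reads per class in percent (left; NaIO4 above untreated) and the ratio of shares on a log2 axis (right; 95% counting intervals lie within the points). Gene-derived reads of 25 to 31 nt take up 44.1% with NaIO4 and 24.3% without, while microRNAs take up 1.17% and 18.7% in the same order.

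By length, the library with NaIO4 held relatively more reads from 25 to 31 nt and fewer at every other length. The lowest ratio was at 23 nt, with 21136 RPM with NaIO4, 103745 without and a ratio of 0.204. The highest was at 27 nt, with 153418 RPM with NaIO4, 89816 without and a ratio of 1.71 (1.70 to 1.71). At 35 nt the ratio was 0.428. Among gene-derived reads alone the ratio followed the same course within narrower bounds. It was 0.952 at 18 nt, 1.89 at 27 nt, 1.88 at 28 nt, 1.45 at 32 nt, 1.03 at 34 nt and 0.907 at 35 nt. Gene-derived reads of 23 nt thus had a ratio of 1.22, while the 23 nt reads of the whole library had the lowest.

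**Figure D2:**
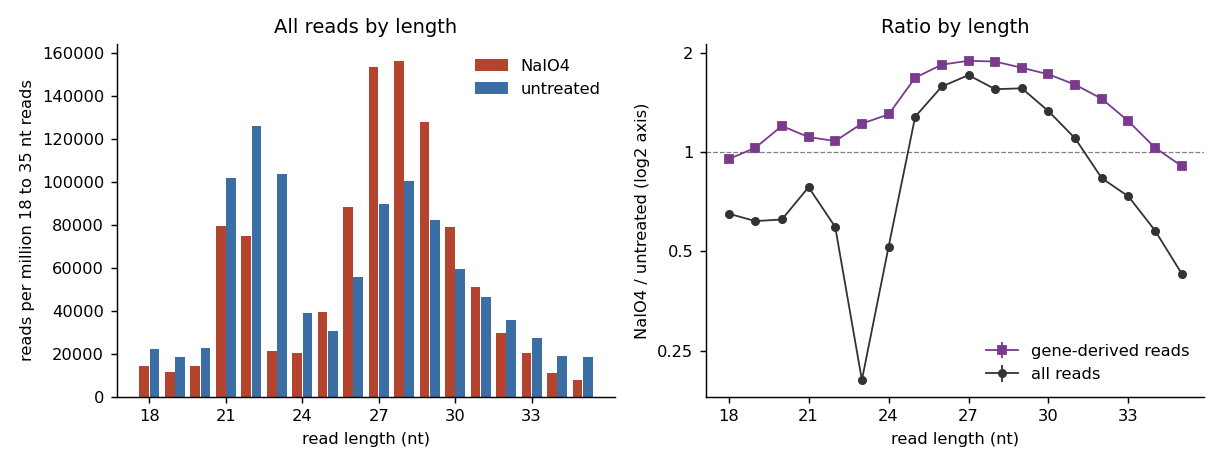
Read length against abundance in RPM (left; NaIO4 left of untreated) and the ratio NaIO4 / untreated by length on a log2 axis (right; error bars are 95% counting intervals and are mostly smaller than the points). The ratio of all reads is above 1 from 25 to 31 nt and lowest at 23 nt, at 0.204.

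The first base marked the reads that kept their share more at the short and long ends than at piRNA size. A first U is the usual start of piRNAs, as Piwi proteins prefer it. Gene-derived reads of 25 to 31 nt began with U in 84.8% of cases with NaIO4 and 83.2% without. Their ratios were 1.85 for a first U, 1.69 for C, 1.60 for A and 1.60 for G. At 18 to 24 nt the ratio was 1.32 for a first U but 0.876 for C, 0.719 for A and 0.592 for G. At 32 to 35 nt it was 1.37 for U, 1.11 for C, 0.916 for A and 0.624 for G. The last base of gene-derived reads of 25 to 31 nt made less difference, with ratios between 1.75 for C and 1.89 for U. For microRNA reads of 18 to 24 nt the first base hardly mattered either, with ratios between 0.0596 for U and 0.0641 for C.

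Source genes of piRNA-like reads moved as one block. Of 1268 genes with at least 200 untreated reads of 25 to 31 nt that match that gene alone, 1260 had a ratio above 1 and the median was 1.87. From the 5th to the 95th percentile the ratios ran from 1.48 to 2.28. A ratio of at least 2 was reached by 367 genes, 28.9% of those measured, and 3 genes, 0.237%, were at least 2-fold lower. The 1215 protein-coding genes had a median of 1.87 and the 25 lincRNA genes a median of 1.79. Among the members below, a count of 2-fold changes is therefore read against 28.9%.

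The 20 source genes with the most untreated reads all had ratios between 1.60 and 2.09. The first was D10Wsu102e, chr10:83360221-83488505 on the plus strand of GRCm38, with 74175 reads with NaIO4 and 29983 without, a ratio of 1.76 (1.74 to 1.79). Its reads comprised 19238 distinct sequences, and the commonest was counted 908 times with NaIO4 and 321 times without. Abl2, a cytoplasmic tyrosine kinase gene at chr1:156558786-156649568, had 27058 reads with NaIO4 and 9931 without, a ratio of 1.94 (1.90 to 1.99). Scd2, which encodes a fatty acid desaturase, had 22415 reads with NaIO4 and 9263 without, a ratio of 1.72 (1.68 to 1.77). Cbx5, the gene of the heterochromatin protein HP1 alpha, had 16465 with NaIO4 and 6052 without, a ratio of 1.94. Both long non-coding genes among the 20, Gm38246 and Gm30948, had a ratio of 1.60.

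The highest ratios among these 20 belonged to Gabpb2, a subunit of the GA-binding protein transcription factor, at 2.09 (2.03 to 2.15), and Socs7, a suppressor of cytokine signalling, also at 2.09 (2.02 to 2.17). Trim71, an RNA-binding ubiquitin ligase gene that let-7 targets, was at 2.06 and Mafg, a small Maf transcription factor gene, at 2.05. Cbl, a ubiquitin ligase gene, was at 2.00. All reads of these 20 genes together were nearly absent from the Mili knockout, with at most 15 reads per gene there, and each gene had at least 16861 reads in the MILI immunoprecipitate. The knockout library held 4808088 reads of 18 to 35 nt and the immunoprecipitate 25240941. Raw counts in them, here and below, are thus not on one scale.

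The highest ratios of all source genes went little further than those of the abundant ones. Ssh2, a cofilin phosphatase gene, had 984 reads with NaIO4 and 237 without, a ratio of 2.96 (2.56 to 3.42). Atp5c1, a subunit of the mitochondrial ATP synthase, had 1520 reads with NaIO4 and 397 without, a ratio of 2.73 (2.44 to 3.05). D5Ertd579e was at 2.68, Brk1, a subunit of the WAVE complex of the actin cytoskeleton, at 2.65 and Foxj3, a forkhead transcription factor gene, at 2.64. These 5 were picked for their ratios, which are a description.

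**Figure D3:**
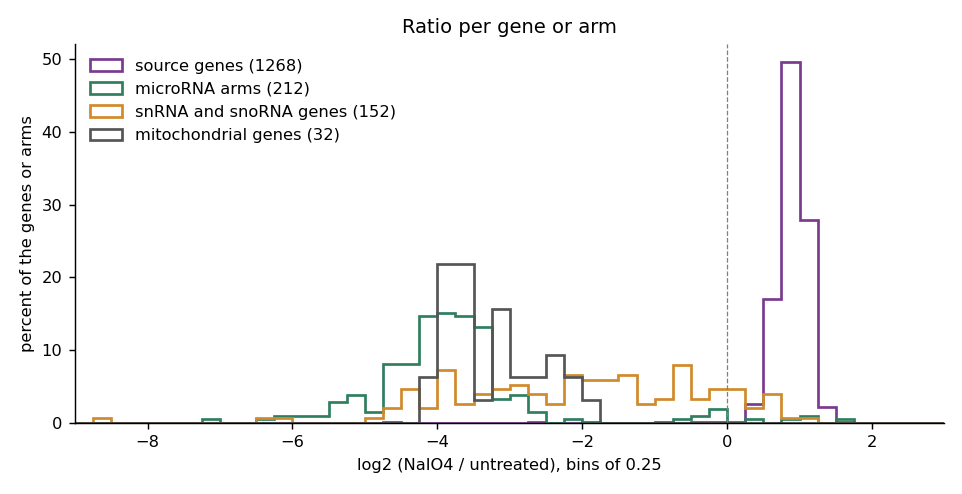
Distribution of the log2 ratio NaIO4 / untreated over 1268 source genes, 212 microRNA arms, 152 snRNA and snoRNA genes and 32 mitochondrial genes, as percent of each set in bins of 0.25. Source genes form a narrow peak with its median at a ratio of 1.87, and microRNA arms a peak with its median at 0.0683.

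A few source genes had low ratios. Rpl5, a large-subunit ribosomal protein gene (chromosome 5), had 70 reads with NaIO4 and 1210 without, a ratio of 0.0412 (0.0319 to 0.0524). Its commonest read, from a transcript with no coding sequence, was counted 40 times with NaIO4 and 1131 times without. Rpl13, another ribosomal protein gene, was at 0.715 (0.649 to 0.786), with 301 reads of its commonest sequence with NaIO4 and 324 without. Both commonest reads hold TGATGA, shown in capitals, letters also found in the C box of C/D snoRNAs. On the read strand these letters stood in 102 of 9441 gene-derived sequences of 25 to 31 nt with 50 or more reads, summed over both libraries, or 1.08%, and the median ratio of those 102 was 1.79.
Rpl5, 29 nt: tgccaaTGATGAcaccacactaactgagc
Rpl13, 30 nt: tggaaTGATGAcattctccggaatcgctgt
The Rpl5 read was counted 1949 times in the Mili knockout and 8 times in the MILI immunoprecipitate, and the Rpl13 read 395 and 2 times in that order. Tmem38b, an ion channel gene, was at 0.176, Gm37608 at 0.259 and Rpl7a at 0.516. The commonest read assigned to Tmem38b holds the last bases of the 5S ribosomal RNA followed by a further T. It made up 54.6% of the reads assigned to that gene with NaIO4 and 47.1% without. Whether the reads of these 5 genes come from the genes named was not tested.

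Gene groups examined had medians close to that of all source genes. The histone and ribosomal protein lists held annotated genes matched by name, while the piRNA pathway and spermatogonial stem cell lists were sets of chosen genes. Only members with at least 200 untreated reads were measured. Histone genes, whose mRNAs end without a poly(A) tail, had 9 of 83 members measured, with ratios from 1.38 for Hist1h2bg to 1.89 for Hist1h1d and a median of 1.68. None of these 9 reached 2-fold. Ribosomal protein genes had 17 of 80 measured and a median of 1.79. Of these, 14 were above 1, 3 of them at least 2-fold, and 3 were below 1, namely Rpl5, Rpl7a and Rpl13.

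Of the 24 listed genes of the piRNA pathway, 3 were measured. Piwil2, which encodes MILI itself, had 770 reads with NaIO4 and 236 without, a ratio of 2.32 (2.01 to 2.70). Mov10l1, the helicase that starts piRNA processing, was at 1.88 (1.64 to 2.17) and Exd1, a partner in piRNA biogenesis, at 1.65 (1.43 to 1.90). Of the 25 listed spermatogonial stem cell genes, 7 were measured, with a median of 1.78. Uchl1, a ubiquitin hydrolase of undifferentiated spermatogonia, was highest at 2.19 (1.97 to 2.44) and Sohlh1, a transcription factor of differentiation, lowest at 1.58 (1.34 to 1.86). Foxo1 was at 2.01, Lin28a at 1.81, Bcl6b at 1.78, Dazl at 1.76 and Sall4 at 1.71. These values describe reads of piRNA size and say nothing of how much of each mRNA the cells hold.

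The part of the mRNA and the number of matching genes moved the ratio only slightly. Reads that match 1 gene had a ratio of 1.73 (1.71 to 1.76) in 5′ UTRs, 1.79 (1.78 to 1.80) in coding sequence and 1.90 (1.90 to 1.91) in 3′ UTRs. The 3′ UTRs held 23.4% of all reads with NaIO4 and 12.3% without. By copy number the ratio was 1.85 for reads of 1 gene, 1.71 for reads of 2 to 5 genes, 1.65 for 6 to 19 genes and 1.58 for 20 genes or more. For reads that match several genes the gene of origin is uncertain.

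MicroRNA arms were lost almost without exception. An arm here is a RefSeq mature name, or, where none matched, one side of the hairpin. Arms were measured where their reads in both libraries summed to 200 or more, which held for 212. Of these, 200, or 94.3%, were lower by 2-fold or more, and each of the 200 was lower by 4-fold or more. Only 3, or 1.42%, were higher by 2-fold or more. The median ratio was 0.0683, which is 14.6-fold lower, with 0.5 reads added to each count in this and the other medians of arms and small RNA genes. The 115 arms of 5′ sides had a median of 0.0688 and the 93 of 3′ sides a median of 0.0653.

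The 5 commonest arms differed in how far they were lost. miR-741-3p had 15612 reads with NaIO4 and 233432 without, a ratio of 0.0476 (0.0469 to 0.0484). miR-871-3p had 15021 with NaIO4 and 213378 without, a ratio of 0.0501 (0.0493 to 0.0510). miR-470-5p was at 0.0482 and miR-183-5p at 0.0493, so these 4 lay within a narrow band. miR-880-3p had only 1106 reads with NaIO4 and 56309 without, a ratio of 0.0140 (0.0132 to 0.0148), or 71.5-fold lower. Its interval lies far from those of the other 4 arms. Over the 20 arms with the most untreated reads the ratios ran from that value to 0.105 (0.100 to 0.109), that of miR-7a-5p.

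Every microRNA family examined was lost, with family medians from 0.0409 to 0.105. The 25 arms of the X-linked germ line group had a median of 0.0715. Within it the 3 arms that share the seed AUUUAGA, shown above, had ratios of 0.0920 for miR-465a-5p, 0.130 for miR-465c-5p and 0.169 (0.161 to 0.177) for miR-465b-5p. The last of these was the highest of the 25, and miR-463-5p, which has another seed, was at 0.130 (0.109 to 0.153). The let-7 family, which promotes differentiation, had 8 arms with the seed GAGGUAG and a median of 0.0666. The Mir17 and Mir106b clusters, which favour proliferation, had 12 arms with a median of 0.0737. The Mir290 and Mir302 clusters, typical of pluripotent cells, had 7 with a median of 0.0754. The Mir183, Mir96 and Mir182 cluster had 5 with a median of 0.0587, and the 17 arms of the Dlk1-Dio3 group, an imprinted region, had a median of 0.0439. Each arm of these lists was at least 2-fold lower, against 94.3% of all arms.

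The lowest and the highest arms were few reads or reads of another length. miR-27a-5p had 2 reads with NaIO4 and 230 without, and miR-543-3p had 4 with NaIO4 and 269 without. The highest ratio was that of miR-194-5p, with 569 reads with NaIO4 and 127 without, a ratio of 3.19 (2.63 to 3.90). Nearly all of its NaIO4 reads were a form of 18 nt, with 555 reads with NaIO4 and 7 without. The mature sequence and this form, with its last 3 bases in capitals, are given next.
miR-194-5p: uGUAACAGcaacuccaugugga
Mir194-1 read, 18 nt: tgtaacagcaactccATG
Mir546 and Mir692-3 hairpins gave the other 2 arms above 2-fold, with 291 reads with NaIO4 and 101 without, and 218 with NaIO4 and 77 without. Both had at most 2 reads in the Mili knockout and over 400 in the MILI immunoprecipitate.

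Short forms of microRNAs were lost less than full-length forms. Over reads that share their first 18 bases with an arm's commonest form, the ratio was 0.0527 (0.0524 to 0.0531) at the commonest length. It was 0.0685 for forms 1 nt shorter, 0.155 for 2 nt, 0.139 for 3 nt, 0.271 for 4 nt, 0.503 for 5 nt and 0.922 (0.791 to 1.07) for 6 nt shorter. Of 54 arms with at least 50 reads of forms 3 nt or more shorter, 49 had a higher ratio for the short forms than for the commonest form, and 43 of them at least 2-fold higher. The median was 4.38-fold. Forms 4 nt or more longer also had higher ratios, from 0.619 (0.483 to 0.791) at 4 nt, but they came from few reads, at most 458 with NaIO4 and 291 without per length.

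The step was steep in single microRNAs. The reads are given with the last 3 bases in capitals.
miR-871-3p read, 18 nt: tgactggcaccattcTGG
miR-871-3p read, 20 nt: tgactggcaccattctgGAT
miR-871-3p read, 23 nt: tgactggcaccattctggatAAT
miR-183-5p read, 18 nt: tatggcactggtagaATT
miR-183-5p read, 22 nt: tatggcactggtagaattcACT
For miR-871-3p the 18 nt read had a ratio of 0.638 (0.545 to 0.746), the 20 nt read 0.0558 (0.0522 to 0.0595) and the 23 nt read 0.0453 (0.0444 to 0.0462). For miR-183-5p the 18 nt read was counted 257 times with NaIO4 and 85 times without, and the 22 nt read 2018 times with NaIO4 and 40428 times without. Their ratios were 2.15 (1.68 to 2.79) and 0.0355 (0.0340 to 0.0372). Whether reads of 18 nt were cut from longer ones before or during library making was not tested.

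Gene-derived reads showed no such step. At 5′ ends with at least 20 reads in each library, the ratio stayed between 1.53 and 1.59 from 5 nt shorter to 3 nt longer than the commonest form, and between 1.17 and 1.42 beyond. Over 7508 such 5′ ends the median difference in mean length, NaIO4 minus untreated, was -0.007 nt, with 3559 ends longer and 3800 shorter with NaIO4. Over 245 microRNA 5′ ends it was -0.109 nt, with 80 longer and 164 shorter. The minimum in both libraries favours ends that NaIO4 kept, so these ratios are not those of all reads.

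**Figure D4:**
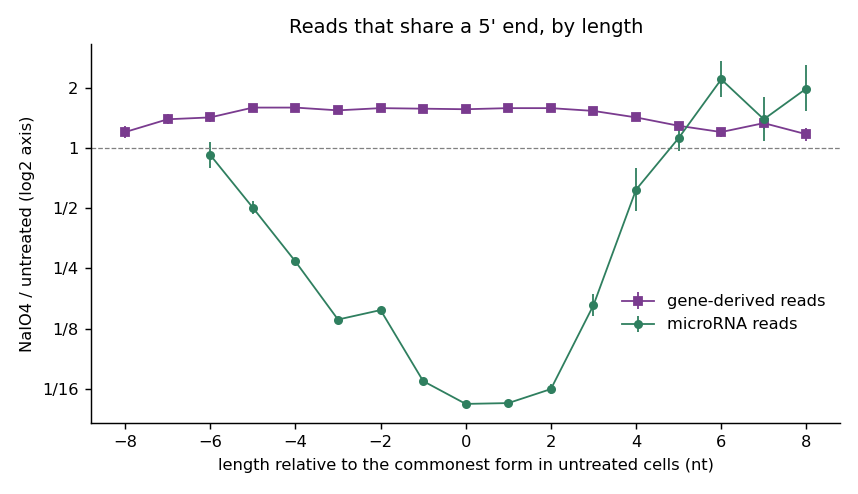
Ratio NaIO4 / untreated (log2 axis) of reads that share a 5′ end, by their length relative to the commonest form in untreated cells, for gene-derived reads and microRNA reads (error bars are 95% counting intervals). Gene-derived reads lie between 1.53 and 1.59 from -5 to 3 nt, while microRNA reads are lowest at 0 nt, at 0.0527.

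Gene-derived and microRNA reads with extra 3′ bases that the source transcript lacks, here called tailed, had lower ratios than whole matches. Tails are added by nucleotidyl transferases, which act on free 3′ ends. Among gene-derived reads of 25 to 31 nt, 5.22% were tailed with NaIO4 and 6.39% without, with ratios of 1.46 (1.45 to 1.47) for tailed and 1.81 for whole reads. At 18 to 24 nt, 2.99% were tailed with NaIO4 and 5.91% without, with ratios of 0.558 (0.543 to 0.572) for tailed and 1.14 for whole reads. A single added U had a ratio of 1.55 (1.53 to 1.56) at 25 to 31 nt, a single A 1.38 (1.35 to 1.40) and UUU 1.06 (0.980 to 1.14). For microRNAs of 18 to 24 nt, 6.69% were tailed with NaIO4 and 7.66% without, with ratios of 0.0523 (0.0511 to 0.0534) for tailed and 0.0604 (0.0601 to 0.0608) for whole reads. Over all lengths, mitochondrial reads went the other way, with 0.258 (0.248 to 0.268) for tailed and 0.113 for whole reads. Predicted microRNA entries over all lengths had 0.889 (0.797 to 0.991) for tailed and 0.730 (0.707 to 0.754) for whole reads, but 1.08 and 1.18 in that order at 25 to 31 nt. The rRNA reads of 25 to 31 nt had 3.22 (3.06 to 3.40) for tailed and 3.20 for whole reads.

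Among other small RNA genes, loss was the rule with marked exceptions. Of 244 genes whose reads in both libraries summed to 200 or more, 147, or 60.2%, were lower by 2-fold or more and 8, or 3.28%, were higher by as much. All 32 mitochondrial genes were among the 147, and their median ratio was 0.0878. The large mitochondrial rRNA mt-Rnr2 had 14172 reads with NaIO4 and 118642 without, a ratio of 0.0851 (0.0836 to 0.0866). The cytochrome oxidase mRNA mt-Co1 was at 0.0632 and the tRNA mt-Tv at 0.178. Fragments of mitochondrial tRNAs had a median of 0.108 over 19 genes and those of mRNAs a median of 0.0772 over 11.

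The small mitochondrial rRNA mt-Rnr1 held both behaviours. Its reads that end at position 702 of the RNA numbered 8004 with NaIO4 and 2900 without, a ratio of 1.97 (1.88 to 2.05). All its other reads numbered 6344 with NaIO4 and 53273 without, a ratio of 0.0848 (0.0826 to 0.0870). The pair of mt-Rnr1 reads printed above start at the same base. The 22 nt read had a ratio of 0.0669 (0.0555 to 0.0800), and the 29 nt read, which ends at position 702, a ratio of 1.84 (1.64 to 2.08). Position 702 was chosen for its ratio, which is therefore a description.

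Small nuclear and nucleolar RNAs are given by kind, against the 60.2% of all small RNA genes that were at least 2-fold lower. The C/D snoRNAs named Snord, which guide 2′-O-methylation of rRNA, had 50 of 58 genes at least 2-fold lower and a median of 0.169. Snord118, the U8 snoRNA, had 2202 reads with NaIO4 and 7290 without, a ratio of 0.215 (0.205 to 0.226). The abundant Snord42a was at 0.794 (0.771 to 0.817). The 8 H/ACA snoRNAs named Snora, which guide pseudouridylation, had 3 at least 2-fold lower and a median of 0.602. None of the 10 spliceosomal snRNA genes was 2-fold lower, and their median was 1.07, with Rnu1a1 (U1) at 1.17 (1.14 to 1.19), Rnu2-10 (U2) at 1.16 (1.14 to 1.19) and Rnu6 (U6) at 0.662 (0.632 to 0.694). Rnu1a1 had 4418 reads in the Mili knockout and 64438 in the MILI immunoprecipitate, and Rnu2-10 had 10980 and 22973 in that order. A leading Rnu1a1 read of 27 nt had 2 and 2977, and one of Rnu2-10 of 28 nt had 62 and 3561. These medians thus include reads of piRNA size that MILI binds. Where near-identical copies of snRNA and snoRNA genes exist, the split of reads between them is uncertain.

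Reads at the 3′ end of these RNAs had lower ratios than reads from inside. Reads that end at the RNA's own 3′ end had a summed ratio of 0.0133 (0.0124 to 0.0142) over snRNAs and snoRNAs, with 949 reads with NaIO4 and 50906 without. Reads from inside had 0.544 (0.540 to 0.549), with single genes from 0.0167 to 2.46 over the 101 measured there. All 26 genes with 200 or more reads at the 3′ end, summed over both libraries, were lower by 2-fold or more, with a median of 0.0178. They met this minimum mostly through untreated reads, which favours low ratios, so that count is a description. U3, the snoRNA that guides early cuts of rRNA, had the most such reads. Its 3′ end had 177 reads with NaIO4 and 29163 without over both genes, a ratio of 0.00432 (0.00371 to 0.00501), or 231-fold lower. Reads from inside U3 had 13974 with NaIO4 and 26810 without, a pooled ratio of 0.371 (0.364 to 0.379). Single reads from inside could lie far lower. An abundant one of 21 nt had 349 with NaIO4 and 5691 without, a ratio of 0.0437 (0.0391 to 0.0487). Spliceosomal snRNAs likewise had 0.0297 (0.0237 to 0.0367) at the 3′ end and 1.09 (1.08 to 1.11) inside. For U6, whose mature end carries a cyclic phosphate, the 3′ end had 30 reads with NaIO4 and 292 without, and the inside 2996 with NaIO4 and 3208 without.

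Transfer RNAs ran the other way. Reads that end with the CCA of the mature tRNA had a summed ratio of 1.71 (1.67 to 1.75), with 27707 reads with NaIO4 and 11539 without. All 10 tRNA genes with 200 or more such reads, summed over both libraries, were above 1, from 1.33 for n-TAagc16 to 3.84 for n-TSgct5, and 5 of them were at least 2-fold higher. Fragments from the 5′ end had 0.948 (0.937 to 0.959) and fragments from inside 0.263 (0.252 to 0.273). The 18 nt read of n-TVcac9 with CCA, printed above, was counted 565 times with NaIO4 and 88 times without, a ratio of 4.57 (3.65 to 5.79). Sequences of only 13 of 408 annotated nuclear tRNA genes were used, with up to 2 substitutions allowed where no transcript matched. Reads of other tRNA genes that differ no further are thus counted under these names, and those that match a transcript go to its class. The rest stand among the reads with no match.

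**Figure D5:**
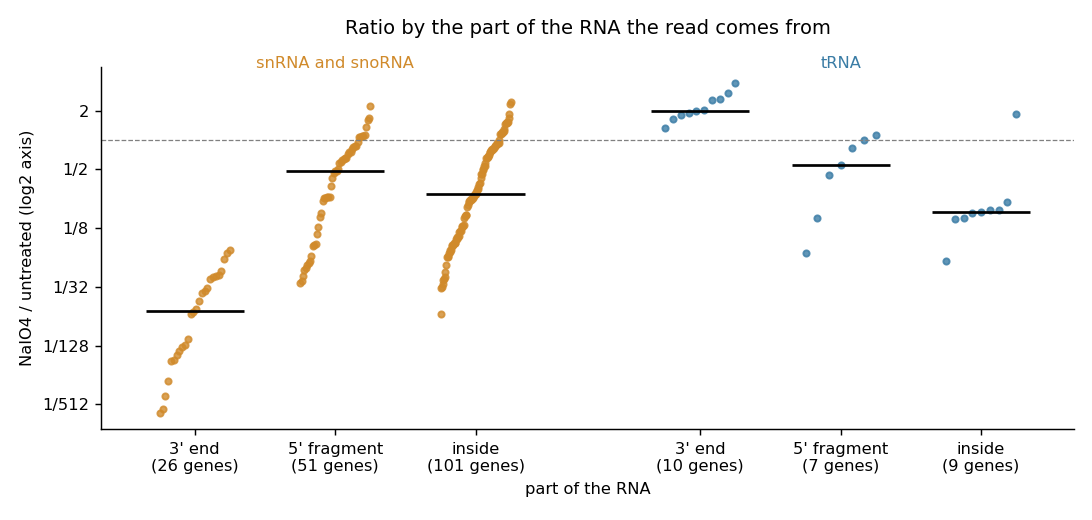
Ratio NaIO4 / untreated (log2 axis) per gene for reads that end at the RNA's 3′ end, start at its 5′ end or lie inside, for snRNA and snoRNA genes (left) and tRNA genes (right); bars are medians. All 26 snRNA and snoRNA genes are below 1 at the 3′ end, and all 10 tRNA genes are above 1 there. The 26 met the read minimum mostly through untreated reads.

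Single tRNA and RNase RNA fragments changed with a few bases at the 3′ end. The 5′ fragment of n-TVcac9, a valine tRNA (chromosome 13), had a ratio of 2.23 (2.12 to 2.34) at 29 nt, 0.399 (0.382 to 0.417) at 32 nt, 1.20 (1.17 to 1.22) at 33 nt and 0.284 (0.259 to 0.312) at 34 nt. The 29 nt form, printed above, had 224 reads in the Mili knockout and 12509 in the MILI immunoprecipitate, or 46.6 and 496 RPM. The 34 nt form had 2296 and 1811 in that order, or 478 and 71.7 RPM. The pair of Rmrp reads, from the RNA of RNase MRP, differ by 5 bases at the 3′ end. The 30 nt read was counted 445 times with NaIO4 and 5193 times without, a ratio of 0.0610 (0.0553 to 0.0672). The 25 nt read was counted 203 times with NaIO4 and 107 times without, a ratio of 1.35 (1.06 to 1.72). Reads at the 3′ end of Rny1, a Y RNA of the Ro particle, had 372 with NaIO4 and 3515 without, a ratio of 0.0754 (0.0675 to 0.0839).

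The high ratio of rRNA came from one 3′ end of the 5S RNA. Counted from the first base of the RNA, Rn5s reads that end at position 95 numbered 407103 with NaIO4, 3.96% of the library, and 47374 without, 0.647% of the library, a ratio of 6.12 (6.06 to 6.18). The other Rn5s reads had 17639 with NaIO4 and 15142 without, a ratio of 0.830 (0.812 to 0.848), and rRNA outside 5S had a ratio of 1.04 (1.03 to 1.05). Reads at the 3′ end of the 5S RNA itself had 2201 with NaIO4 and 5535 without, a ratio of 0.283 (0.269 to 0.298). Reads of 18 to 35 nt that end at position 95 can only start from position 61 to 78. Each of these starts had a ratio above 1, from 1.58 (1.40 to 1.79) at position 66 to 16.9 (15.9 to 17.9) at position 68. Reads assigned to the annotated copy n-R5s210 numbered 27007 with NaIO4 and 166 without, a ratio of 116 (99.5 to 136). Of these, 12899 with NaIO4 and 79 without were a 26 nt read, the printed Rn5s read preceded by a T. Whether these reads come from that copy was not tested. The printed 25 nt read was counted 19577 times in the Mili knockout and 70 times in the MILI immunoprecipitate.

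The commonest read of both libraries came from the Mir5099 locus (chromosome 12), an annotated microRNA entry, and it changed little. The read of 21 nt and a form with 4 more bases, in capitals, are given next.
Mir5099 read, 21 nt: tcttagatcgatgtggtgctc
Mir5099 read, 25 nt: tcttagatcgatgtggtgctcCGGA
The 21 nt read was counted 607852 times with NaIO4 and 375207 times without, a ratio of 1.15 (1.15 to 1.16). The 25 nt form was counted 70 times with NaIO4 and 599 times without, a ratio of 0.0832 (0.0640 to 0.107). The locus as a whole held 8.91% of the reads with NaIO4 and 7.77% without, and it is kept apart from the microRNAs in every value above.

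Across single sequences, loss and gain were both common. Sequences were measured where their reads in both libraries summed to 50 or more. Of 20675 such sequences, 5947, or 28.8%, had a ratio of 2 or more and 4594, or 22.2%, a ratio of 0.5 or less. The 9441 gene-derived sequences of 25 to 31 nt included 3821 of the higher and 89 of the lower ones, and their median was 1.80. The 801 microRNA sequences included 11 higher and 727 lower ones, and their median was 0.0699. Of 908 mitochondrial sequences 855 were lower. The 1094 snRNA and snoRNA sequences divided more evenly, with 118 higher and 524 lower ones.

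At 25 to 31 nt, sequences linked to MILI held a higher share with NaIO4 in the classes given here. A sequence was called MILI-linked where it had 10 or more reads in the MILI immunoprecipitate and a share there at least 4-fold that in the Mili knockout, and Mili-independent where the reverse held. This division was chosen after the values were seen. At 25 to 31 nt, MILI-linked gene-derived reads had a ratio of 1.75 (1.74 to 1.75) and Mili-independent ones 0.425 (0.407 to 0.444). For tRNA fragments of that size it was 2.16 (2.10 to 2.22) and 0.152 (0.144 to 0.161), and for microRNA reads 1.66 (1.54 to 1.78) and 0.0501 (0.0458 to 0.0546), in the same order. snRNA and snoRNA reads followed, with 1.87 and 0.291. Sequences that met neither rule held most gene-derived reads of 25 to 31 nt, 2556622 with NaIO4 and 971951 without, at 1.87 (1.87 to 1.88). That is above the MILI-linked 1.75, and the Mili-independent gene-derived reads came from only 198 sequences. Sequences of neither kind had 0.844 for tRNA, 0.937 for microRNA, 0.748 for snRNA and snoRNA and 1.17 for rRNA reads of that size. At 18 to 24 nt MILI-linked reads had ratios below 1 in several classes, with 0.850 (0.819 to 0.882) for microRNAs, 0.755 for other small RNAs and 0.475 for predicted microRNA entries, and other small RNAs of 32 to 35 nt had 0.744. At 25 to 31 nt rRNA was the exception, with 1.69 (1.65 to 1.73) for MILI-linked and 4.32 (4.27 to 4.37) for Mili-independent reads. What the ends of any of these reads carry was not tested.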

How the data were processed

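The deposited files hold read counts per distinct small RNA sequence, made by the authors; per the submitters' processing notes the tools included Bowtie with the mm10 build, and no trimming step is recorded there. The labels assign 1 library to each group. The NaIO4 library held 10752278 reads and the untreated library 7905850, of which 95.6% and 92.6% were 18 to 35 nt long. Sequences were matched without mismatch to GENCODE M21 transcripts (GRCm38) and RefSeq small RNAs with bwa 0.7.19-r1273, at up to 3000 places, since no genome was used. Where that left a sequence unmatched, 1 to 3 of its last bases were set aside as a tail. tRNA reads were matched with up to 2 substitutions. Classes were taken in a fixed order, small RNAs before genes, and reads of 4 genes that overlap rRNA sequence, on either strand, were counted as rRNA. Ratios of shares, their exact intervals (scipy 1.17.1) and counts past 2-fold were computed with no count model and no p-value, as each group has 1 library. The computation of the intervals was run on simulated data that varied by counting error alone, with every changed gene set past 2-fold. In 1268 simulated source genes 94.5% of intervals held the true ratio, and all 200 changed genes were called. Both outcomes follow from these settings, so they check the computation and not how the intervals serve for real libraries.

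Genes were named from the 20 source genes and 20 microRNA arms with the most untreated reads, from the 3 commonest sequences of each class in each library, and, as description, from the 5 highest and 5 lowest ratios. A few others were chosen after their values were seen, namely the position 702 end of mt-Rnr1, the position 95 end of Rn5s, the pairs of reads that differ at the 3′ end and the division by MILI. The comparison, the gene lists and the rules were chosen with earlier results of these data known. Alternatives were another scale, other read minimums and fold limits, 1 mismatch, each distinct sequence counted once, other lengths and the removal of the 10 commonest sequences. Sequences on chromosome 18, reads of UTRs and unmatched sequences are not printed.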

Additional observations from a re-analysis of the deposited data

Results flagged for a closer look

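The same sequences were also counted in the pair of Hen1 knockout libraries, where 5 classes had a ratio on the other side of 1. Each class has 1 library per treatment and genotype, so the difference between genotypes was not tested, and the knockout NaIO4 library was the shallowest, at 2604390 reads of 18 to 35 nt. Hen1 encodes the methyltransferase that modifies the 3′ end of piRNAs. The NaIO4 to untreated ratio of gene-derived reads of 25 to 31 nt was 0.292 (0.290 to 0.293) in the Hen1 knockout and 1.81 in wild type, with 124869 knockout reads with NaIO4 and 1924767 without. For reads antisense to a gene at that size it was 0.358 (0.349 to 0.367) in the knockout and 1.58 in wild type. For reads of that size with no match it was 0.696 in the knockout and 1.21 in wild type. In the other direction, snRNA and snoRNA reads had 1.22 (1.20 to 1.23) in the knockout and 0.400 in wild type, and predicted microRNA entries 1.74 (1.67 to 1.82) in the knockout and 0.730 in wild type. Other classes lay on the same side of 1 in both genotypes. The rRNA ratio was 13.8 (13.7 to 13.9) in the knockout and 3.05 in wild type, the microRNA ratio was 0.302 (0.299 to 0.305) in the knockout and 0.0625 in wild type, and that of the Mir5099 locus 3.89 (3.88 to 3.90) and 1.15 in the same order. Shares that rest on these classes move together, and their part in the other ratios was not tested.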

How the results depend on the processing

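Of 103 alternative values, 40 stayed within a set limit, 57 moved and 6 changed direction. The limit was the counting error for ratios of reads and 1.5 times for counts. For medians over genes or arms and for differences in length it was the standard deviation between members, which is not counting error. The cause was not tested beyond what each alternative does by construction. The class ratios are the microRNA, gene-derived (25 to 31 nt), mitochondrial, snRNA and snoRNA, and rRNA ratios. Per microRNA read in place of all reads, which multiplies each ratio by the same number, gene-derived reads had 29, mitochondrial reads 1.81, snRNA and snoRNA reads 6.40 and rRNA 48.8, so mitochondrial and snRNA and snoRNA reads turned to above 1. Per read of the Mir5099 locus, in the same order with microRNAs first, the ratios were 0.0545, 1.58, 0.0985, 0.349 and 2.66. Leaving out the 10 commonest sequences per library they were 0.0742, 1.73, 0.108, 0.383 and 1.91. With each distinct sequence counted once they were 0.373, 1.20, 0.163, 0.448 and 0.618, so rRNA turned to below 1. With 1 mismatch allowed, microRNAs had 0.0637, gene-derived reads 1.81, snRNA and snoRNA reads 0.404 and rRNA 2.87. Gene-derived reads of 24 to 32 nt had 1.79.

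Among alternatives chosen after seeing the data, MILI-linked sequences of 25 to 31 nt had 1.66 for microRNAs and 1.87 for snRNA and snoRNA reads, both turned to above 1, 1.75 for gene-derived reads and 1.69 for rRNA. Mili-independent ones had 0.0501 for microRNAs, 0.425 for gene-derived reads, which turned to below 1, 0.134 for mitochondrial reads, 0.291 for snRNA and snoRNA reads and 4.32 for rRNA. Without the Rn5s reads that end at position 95, rRNA had 1.26.

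By length, the ratio at 23 nt was 0.620 with each sequence counted once and 0.309 without the commonest sequences, and at 27 nt it was 1.20 and 1.60 in that order. A first U over other first bases had a ratio of 1.13 in gene-derived reads of 25 to 31 nt and 1.02 with each sequence counted once. Source genes 2-fold higher numbered 367 and became 1287 at a minimum of 50 reads, 1267 per microRNA read, 0 per piRNA-like read (25 to 31 nt, in no small RNA class) and 0 at 4-fold. Those 2-fold lower numbered 3 and became 8 at 50 reads, 0 per microRNA read and 6 per piRNA-like read. The median of source genes was 29.9 per microRNA read and 1.18 per piRNA-like read. microRNA arms 2-fold higher numbered 3 and became 6 at 50 reads, 24 per microRNA read, 0 at 4-fold and 0 with reads of 20 to 24 nt alone. Arms 2-fold lower numbered 200 and became 313 at 50 reads and 22 per microRNA read. Sequences 2-fold higher numbered 5947 and became 854 at 200 reads, 17392 per microRNA read and 1290 at 4-fold, and those 2-fold lower numbered 4594 and became 1302 at 200 reads and 1071 per microRNA read. The ratio of tailed over whole gene-derived reads of 25 to 31 nt was 0.807 and became 0.831 for tails of 1 base and 0.875 at 5′ ends with at least 10 whole reads in each library, and at 18 to 24 nt it was 0.490 and became 0.510 for 1 base. The median of the mirtron list was 0.0409 and became 0.0468 at 50 reads.

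No paired analysis was possible because each group has 1 library, and for the same reason no library was left out. The microRNA ratio has no value per microRNA read, and the ratio of 0.0625 stands. Arms and genes with few reads have wide intervals, such as 0.00619 (0.000745 to 0.0226) for miR-27a-5p.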

Other observations

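Reads that matched no annotated transcript held a small set of sequences with high ratios. Of 4835 such sequences with 50 or more reads, summed over both libraries, 169 were at least 10-fold higher with NaIO4. Matched sequences at the same minimum also reached such ratios, up to 838 for rRNA, 90.4 for tRNA and 52.7 for microRNA. The share at 10-fold over all sequences is not given here. Of these 169, 78 shared their last 13 bases with the 5S reads that end at position 95, 40 ended in CCA as mature tRNAs do, and 51 did neither. All reads with those 13 last bases numbered 64550 with NaIO4 and 1793 without, or 0.628% and 0.0245% of the libraries, a ratio of 25.6 (24.5 to 26.9). Each of the 96 sequences among them with 50 or more reads was at least 2-fold higher. They met this minimum mostly through NaIO4 reads, and position 95 was itself picked as the commonest Rn5s end with NaIO4. That count is therefore a description. Unmatched reads that end in CCA numbered 331908 with NaIO4 and 162892 without, a ratio of 1.45 (1.44 to 1.46), and the remaining unmatched reads had a ratio of 0.881 (0.879 to 0.883). The gene of origin of these reads was not placed.

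The libraries shared few of their sequences but many of their reads. Of 2642602 distinct sequences of 18 to 35 nt found in either library, 279659 were found in both. Those held 57.4% of the reads with NaIO4 and 72.0% of the reads without.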
